A study of Homo sapiens with 10 samples.

Results

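The binding sites of Smad3 in H441 cells were compared between cells given a control siRNA (siControl) and cells in which TTF-1 was depleted by siRNA (siTTF-1). The members are all peaks of the 2 full Smad3 lists, 8941 in siControl and 14145 in siTTF-1 cells, together 23086 of the 79601 peaks in the 7 called lists of the series. A peak was counted as shared when it had at least 1 bp in common with a peak of the other list. H441 is an established lung adenocarcinoma cell line that is positive for TTF-1, per the labels. Both cultures carry the same treatment label, TGF-β3 at 1 ng/ml for 1.5 h, so both lists describe Smad3 in stimulated cells. One Smad3 antibody was used for both lot, and both lists were called at a false discovery rate limit of 1%, per the labels. The siRNA sequences and the amount of TTF-1 left after depletion were not analysed here.

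Smad3 is a transcription factor that TGF-β receptors phosphorylate. It then enters the nucleus, usually in a complex with Smad4, and binds short DNA elements beside other transcription factors that help to set where it binds. TTF-1, also called NKX2-1, is a homeodomain factor that specifies lung epithelium and marks many lung adenocarcinomas. Other lists of the series served as references: TTF-1 in H441 cells at 0 h and 1.5 h, Smad4 in siTTF-1 cells (false discovery rate limit 10%), and Smad3 in A549 cells (limit 5%), a lung adenocarcinoma line that the labels call negative for TTF-1. The labels of both TTF-1 libraries mention no siRNA, so TTF-1 was mapped in other cultures than the compared ones. The label for treatment is the same for all libraries, also for the one titled 0 h.

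Each condition had 1 library. No difference between the lists could therefore be set against replicate spread, and no test between conditions was made. Intervals below are 95% intervals for counting error only, and peaks of 1 library are not replicates. The lists hold no read counts, so their depth is unknown, and the siRNA cannot be told apart from depth or enrichment of the library as the source of a difference in length. No hg18 annotation or sequence was used here, so positions are given on hg18, counted from 1, without gene, exon or intron, and gene neighbourhoods and motifs were not analysed.

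The siTTF-1 list was 1.58 times as long as the siControl list and covered 9.18 Mb against 6.03 Mb. The excess was spread over the genome. On the 23 chromosomes with peaks in both lists, the ratio of peak counts ran from 1.42 on chromosome 20 to 1.70 on chromosome 21. Of 2332 windows of 1 Mb with a Smad3 peak, 1763 (75.6%) held more siTTF-1 than siControl peaks, 372 held equal numbers and 197 (8.45%) held fewer. Peaks of siTTF-1 cells alone occupied 244 windows and peaks of siControl cells alone 26.

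Of the siControl peaks, 1718 (19.2%) had no siTTF-1 peak and are called lost, and 7223 (80.8%, interval 79.95 to 81.6) are called kept. In the siTTF-1 list, 6944 peaks (49.1%) met no siControl peak and are called gained, and 7201 were kept. These names state membership of a list only. Both shares depend on the unequal lengths: against the first 8941 siTTF-1 peaks by number, the kept share of siControl peaks was 67.1%, and 33.5% of those siTTF-1 peaks had no siControl peak. The lost peaks were the same 1718 peaks that the authors deposited as a separate subset. Kept sites mostly lay at the same places with different borders: 7013 pairs joined 1 peak to 1 peak, with a median distance of 25 bp between centres (quartiles 25 and 75 bp, 95th percentile 225 bp), and 712 pairs (10.2%) had identical borders. Only 56 siControl peaks covered more than 1 siTTF-1 peak, and 78 siTTF-1 peaks covered more than 1 siControl peak, at most 4. The shared bases came to 4.63 Mb, which is 76.7% of the siControl and 50.4% of the siTTF-1 bases.

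Few sites lay near the border of the rule. The smallest overlap in a matched pair was 149 bp, and 46 pairs shared at most 200 bp. On the other side, 88 lost peaks (5.12%) had a siTTF-1 peak within 500 bp, and 222 gained peaks (3.20%) had a siControl peak within 500 bp. The median gap was 24776 bp from a lost peak to the nearest siTTF-1 peak and 50326 bp from a gained peak to the nearest siControl peak.

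The peak number runs from 1 to the length of each list. No label says what it stands for. Peaks with low numbers were wider, and the number is used below as an order, with number 1 as the head. Nearly all sites at the head of one list were found somewhere in the other list, though often not at its head. Of the first 100 siControl peaks 99 had a siTTF-1 peak, and of the first 100 siTTF-1 peaks 98 had a siControl peak. Among the first 1000, 28 siControl peaks were lost (97.2% kept, 95.98 to 98.1) and 39 siTTF-1 peaks were gained (96.1% shared, 94.7 to 97.2). At 5000 peaks the numbers were 524 lost and 948 gained. The shared part was then 89.5% (88.6 to 90.4) of the siControl and 81.0% (79.9 to 82.1) of the siTTF-1 peaks. When the head of one list was matched to an equally long head of the other, however, only 54.0% of the first 100 siControl peaks and 56.8% of the first 1000 were found.

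**Figure D1:**
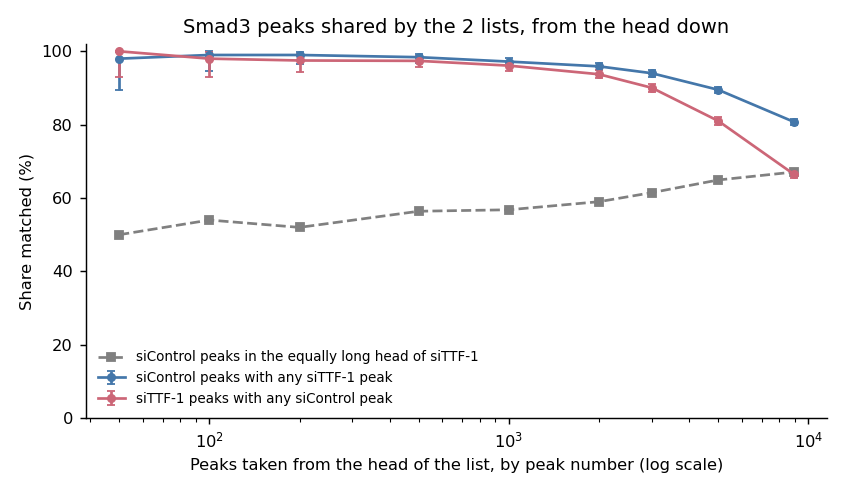
Share of the first peaks of each Smad3 list that met a peak of the other list (vertical axis, percent) against the number of peaks taken by peak number (horizontal axis, log scale), with exact 95% intervals; the grey line uses an equally long head of the other list. Both coloured lines stay above 96% up to 1000 peaks, while the grey line lies between 50% and 67.1%.

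Unshared peaks were narrow and stood late in their lists. The median width was 499 bp for lost peaks (quartiles 349 and 649 bp) and 499 bp for gained peaks (399 and 649 bp). Kept peaks had a median of 649 bp in both lists, with quartiles of 449 and 849 bp in siControl and 499 and 899 bp in siTTF-1 cells. Widths of 1 kb or more were found in 4.13% of the lost and 3.95% of the gained peaks, against 14.2% of the kept siControl and 17.2% of the kept siTTF-1 peaks. A narrow peak also has less length with which to meet another. In 5 equal strata of the siControl order the lost share was 4.03%, 9.90%, 19.9%, 25.9% and 36.3% from head to tail. The gained share of siTTF-1 peaks was 9.33%, 33.3%, 52.6%, 69.8% and 80.4%. At the same place in the list the difference in width varied: in the first stratum, lost peaks had a median of 699 bp and kept siControl peaks 849 bp, and in the fourth both had 499 bp. Gained peaks of the first siTTF-1 stratum had a median of 724 bp against 849 bp for the kept, and in the last stratum both had 449 bp.

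**Figure D2:**
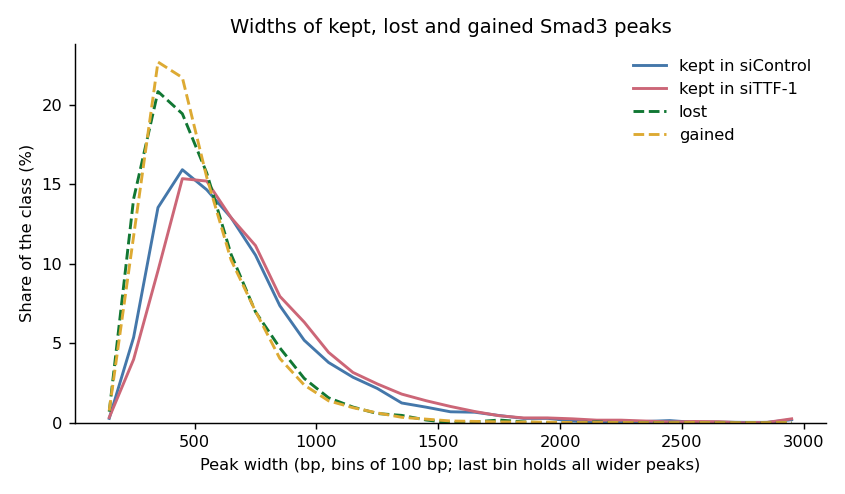
Width of Smad3 peaks (horizontal axis, bp in bins of 100 bp) as a share of each class (vertical axis, percent) for kept peaks in each list and for lost and gained peaks. Lost and gained peaks are most frequent in the bin centred on 350 bp (20.8% and 22.7%), kept peaks in that centred on 450 bp (15.9% and 15.4%).

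The matched pairs show how shared sites differed between the lists. Across the 7013 pairs the siTTF-1 peak was wider in 3681 (52.5%), equal in 1117 (15.9%) and narrower in 2215 (31.6%), with a median ratio of widths of 1.06 (quartiles 0.917 and 1.23). A ratio of at least 2 was found in 261 pairs and a ratio of at most 0.5 in 136. To compare order between lists of unequal length, each pair was given its percentile among the 7013 pairs in each list, from 0 at the head to 100. The rank correlation of the peak numbers across pairs was 0.59, a description over peaks of 2 libraries. The difference, siTTF-1 minus siControl, is called the order shift and is positive where a site stood later after TTF-1 depletion. Its size was at most 10 points in 2586 pairs (36.9%), 233 pairs stood over 50 points earlier and 249 over 50 points later.

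The order shift differed with TTF-1 occupancy. This split was chosen after seeing the data, and the TTF-1 lists were not used to define the pairs. A pair counted as with TTF-1, Smad4 or A549 when its siControl peak met a peak of that list. The 1348 pairs without a TTF-1 1.5 h peak stood earlier in siTTF-1 cells, with a median shift of -15.8 points (interval of the median -17.7 to -14.0, quartiles -32.9 and -0.04). The 5665 pairs with a TTF-1 1.5 h peak had a median of 2.25 points (1.71 to 2.71, quartiles -10.3 and 18.6). Of the pairs without TTF-1, 75.1% stood earlier in siTTF-1 cells, against 44.1% of the pairs with it. Both kinds started at different places. Without TTF-1 the median order was 73.3 in siControl and 53.0 in siTTF-1 cells, and with TTF-1 it was 43.6 and 49.3. A pair late in siControl has more room to move earlier than later, and strata of siControl order were not run. The quartile ranges of the shift overlap, so single sites of both kinds are found on either side. Since percentiles are relative, an earlier place of one kind of site forces a later place of the other.

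Within 5 strata of the pair's mean order the pairs without TTF-1 stood at median shifts of -10.4, -25.8, -27.2, -21.2 and -5.10 points, and those with TTF-1 at 0.31, 3.04, 8.85, 6.02 and 1.68 points. By chromosome, the median shift was later with TTF-1 than without on 22 of 23 chromosomes, by up to 30.7 points on chromosome 22, and equal on chromosome 18, where both medians were -3.24. The difference between both medians was 18.1 points (16.2 to 20.03). It was 9.88 points when TTF-1 presence required centres within 200 bp, and 18.0 points when presence was taken at the siTTF-1 peak.

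**Figure D3:**
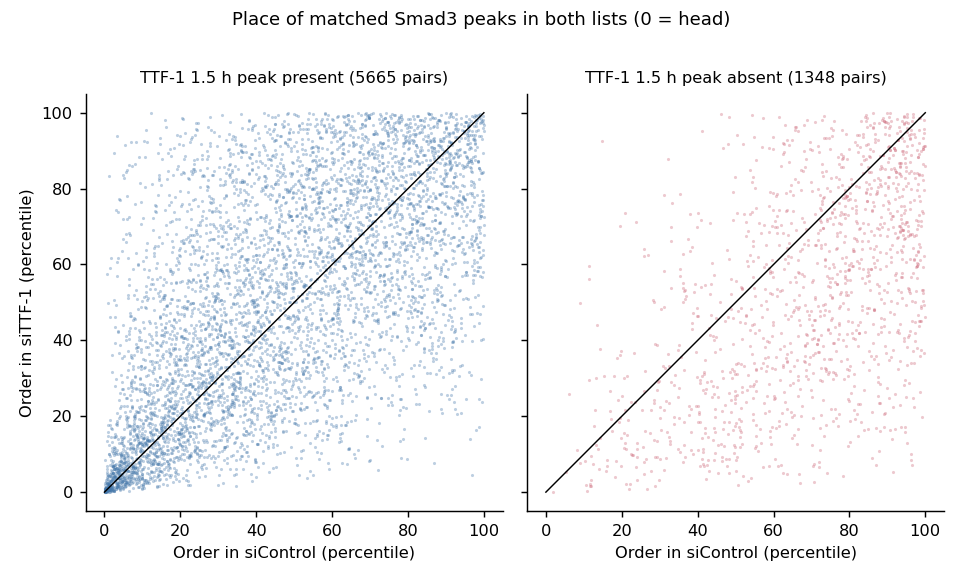
Each point is a matched Smad3 pair, with its percentile by peak number in siControl (horizontal axis) and siTTF-1 cells (vertical axis), split by the presence of a TTF-1 1.5 h peak; the line marks equal order. Pairs without TTF-1 lie mostly below the line (75.1% earlier in siTTF-1), and pairs with TTF-1 lie on both sides of it.

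Widths followed the same split. Pairs without TTF-1 had a median width of 499 bp in siControl and 649 bp in siTTF-1 cells, a median ratio of 1.18 (quartiles 1.00 and 1.46), and 70.8% were wider after depletion. Pairs with TTF-1 had 649 bp in both lists, a median ratio of 1.00 (0.900 and 1.18), and 48.1% were wider. Narrower siTTF-1 peaks made up 15.3% of the pairs without TTF-1 and 35.5% of those with it. Ratios of at least 2 were found in 115 of the 1348 pairs without TTF-1 and in 146 of the 5665 pairs with it. Ratios of at most 0.5 were found in 8 and 128 pairs respectively. The median ratio was lower with TTF-1 on 22 of 23 chromosomes. The siControl width also divides the ratio, and a narrow siControl peak has less length with which to meet a TTF-1 peak. The ratio was not computed with TTF-1 taken at the siTTF-1 peak.

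Smad4, the partner of Smad3, and the A549 list further divided these pairs. The Smad4 list used here was mapped after TTF-1 depletion, the condition of one of the compared lists, and held 1605 peaks. The Smad4 list of siControl cells, at the same limit of 10%, held 1 peak and was not used. The Smad4 list thus shares its condition with only the siTTF-1 peak of each pair. A split by Smad4 is therefore not independent of the order shift or the width ratio, and could favour sites that are early and wide in siTTF-1 cells. Without TTF-1, the 134 pairs with Smad4 only had a median shift of -24.2 points and a median width ratio of 1.32, and the 80 pairs with both Smad4 and A549 peaks had -27.0 points and 1.26. The 1016 pairs with neither stood at -12.9 points and 1.17, and the 118 pairs with an A549 peak only at -19.8 points and 1.13. With TTF-1, the 4464 pairs that had neither Smad4 nor A549 peaks had a median of 4.26 points and a ratio of 1.00. The 252 pairs with TTF-1, Smad4 and A549 peaks had -2.37 points and 1.11. Their median order was 16.5 in siControl and 9.69 in siTTF-1 cells, near the head of both lists.

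Single sites illustrate both directions. The pair that stood most earlier lay on chromosome 1 (71324751 to 71325099 in siControl), at number 8538 in siControl and number 334 in siTTF-1 cells. Its width was 349 bp and 599 bp, and TTF-1 occupied it at both times. The next, on chromosome 21 (36772351 to 36772849), was number 8495 and 525, with widths of 499 bp and 949 bp, no TTF-1 peak but a Smad4 peak. The third, on chromosome 8 (6494001 to 6494649), was number 8461 and 640, with widths of 649 bp and 1749 bp, and met TTF-1 at 0 h only and also Smad4. Chosen for the largest shifts, these 3 sites were necessarily at the tail of the siControl list and near the head of the siTTF-1 list.

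In the other direction, a site on chromosome 3 (109711551 to 109712249) was number 245 in siControl and number 11868 in siTTF-1 cells, with widths of 699 bp and 249 bp. A site on chromosome 14 (74110001 to 74110899) was number 907 and 14123, with widths of 899 bp and 499 bp. One on chromosome 19 (10231601 to 10232499) was number 191 and 10508, with widths of 899 bp and 599 bp. TTF-1 occupied all 3 at both times, without Smad4 or A549 peaks. Of all 7013 pairs, 4464 likewise had a TTF-1 1.5 h peak and no Smad4 or A549 peak. Each of the 3 sites would count as lost had the siTTF-1 list ended at the siControl length.

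The largest ratios of width were 5.35 on chromosome 9 (71925551 to 71925849), from 299 bp to 1599 bp, 5.22 on chromosome 4 (39287551 to 39287799), from 249 bp to 1299 bp, and 4.88 on chromosome 4 (144393101 to 144393499), from 399 bp to 1949 bp. TTF-1 was absent from all 3 at 1.5 h and present at the third at 0 h. The smallest ratio, 0.075, belonged to a broad siControl interval on chromosome 12 (12761501 to 12767499), where 5999 bp faced 449 bp. Then followed sites on chromosome 10 (61153751 to 61154949), with 1199 bp and 249 bp, and on chromosome 9 (38661651 to 38662949), with 1299 bp and 299 bp, both with TTF-1 peaks at both times.

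Lost, kept and gained sites were next described by all reference lists together. A site was counted as TTF-1 occupied here when either TTF-1 list had a peak. Gained sites most often met no other list: 3705 of 6944 (53.4%, 52.2 to 54.5) had no TTF-1, Smad4 or A549 peak. This was so for 116 of the 1718 lost sites (6.75%, 5.61 to 8.04) and 568 of the 7201 kept siTTF-1 sites (7.89%, 7.28 to 8.53). The gained sites that met none of these lists had a median number of 9746, close to the 10017 of the 2501 gained sites with TTF-1 only. Gained sites with Smad4 or A549 but no TTF-1 numbered 489 (7.04%) and stood earlier, at a median number of 7205. The 42 of them with both Smad4 and A549 stood at a median number of 2656.5 and had a median width of 849 bp. In the lost class 1578 sites (91.9%, 90.5 to 93.1) had TTF-1 and no Smad4 or A549 peak, and 1 site had Smad4 or A549 without TTF-1. Among the kept siControl sites 5047 (69.9%, 68.8 to 70.9) had TTF-1 and no Smad4 or A549 peak. Another 237 (3.28%) had Smad4 or A549 without TTF-1. With all other peaks disregarded, TTF-1 was present at 1601 lost (93.2%) and 6406 kept siControl sites (88.7%). TTF-1 together with Smad4 or A549 was found at 23 lost (1.34%) and 1359 kept siControl sites (18.8%). Those 1359 kept sites stood early, at a median number of 2110. Smad4 was mapped after TTF-1 depletion, where lost sites have no Smad3 peak by definition. These shares are not given within strata of peak number.

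Among the sites without a TTF-1 peak in either list, the median gap to the nearest one was 4451 bp for the 117 lost sites, 12251 bp for the 803 kept siTTF-1 sites and 18551 bp for the 4194 gained sites. A TTF-1 peak lay within 10 kb of 60.7%, 46.6% and 36.7% of them. Lost sites without TTF-1 were thus nearest to TTF-1 peaks and gained sites farthest, in these lists.

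Smad3 peaks often lay close together, and clustering was measured as the share of peaks with another peak of the same list within 10 kb, edge to edge. The share was 36.7% (35.7 to 37.7) in siControl and 42.2% (41.4 to 43.0) in siTTF-1 cells. The order turned when only as many siTTF-1 peaks as siControl peaks were taken, lowest numbers first, with 36.7% in siControl against 34.1% in siTTF-1, and with the first 5000 peaks of each list, 28.3% against 25.9%. The larger share in siTTF-1 cells was thus not found in lists of equal length taken by peak number.

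Unshared sites lay beside kept sites less often than kept sites did. A kept peak was found within 10 kb of 24.2% (22.1 to 26.3) of the lost peaks and 20.7% (19.8 to 21.7) of the gained peaks, and another kept peak was found within 10 kb of 33.6% (32.5 to 34.7) of the kept siControl peaks. Gained peaks had another gained peak within 10 kb in 22.96% (21.97 to 23.96) of cases and lost peaks another lost peak in 12.0% (10.5 to 13.7), classes of unequal size. Gained peaks within 10 kb of a kept peak had a TTF-1 1.5 h peak in 28.6% (26.3 to 31.0) of cases and those farther away in 25.8% (24.6 to 26.9). Smad4 was present at 4.51% (3.50 to 5.72) and 5.81% (5.21 to 6.47) of them. A549 peaks were present at 7.78% (6.45 to 9.28) and 5.43% (4.85 to 6.06). These intervals cover counting error only, and differences between near and far gained peaks were not tested.

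When the sites of both lists were joined across gaps of up to 10 kb, 11691 groups resulted, of which 2867 held 2 or more sites. With single sites counted as groups, gained sites alone made up 4695 of all groups (40.2%), kept sites alone 4308 (36.8%) and lost sites alone 1079 (9.23%). Among the 2867 groups of several sites, these were 505 (17.6%), 694 (24.2%) and 59 (2.06%). Kept and gained sites without a lost site stood together in 1087 of the 2867 (37.9%). Kept and lost sites without a gained site did so in 284 (9.91%), and lost and gained sites without a kept site in 135 (4.71%). All 3 classes met in a further 103 groups.

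Over all pairs, shared sites beside unshared ones showed order shifts in the direction of their neighbours. The classes of neighbours and the shift come from the same 2 lists, so they are not independent of each other. Kept pairs with a lost and no gained peak within 10 kb had a median shift of 9.25 points (6.20 to 12.3, 374 pairs), and 69.3% stood later in siTTF-1 cells. Pairs with a gained and no lost peak had -4.19 points (-5.62 to -2.61, 1376 pairs), and 60.0% stood earlier. The 5160 pairs with neither had 0.43 points and the 103 pairs with both had 2.41 points (-1.33 to 5.53). The medians ranked in the same sequence within each TTF-1 class: with TTF-1 they were 12.3 points beside lost peaks, 3.02 with neither and -1.60 beside gained peaks. Without TTF-1 they were -2.00 (-8.18 to 3.72, 64 pairs), -14.9 and -20.1 points. Of these 64 pairs beside lost peaks 43.75% stood later in siTTF-1 cells, and their median was not positive. It nevertheless stood later than the -14.9 points (-17.2 to -12.9) of pairs without TTF-1 that had neither neighbour.

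**Figure D4:**
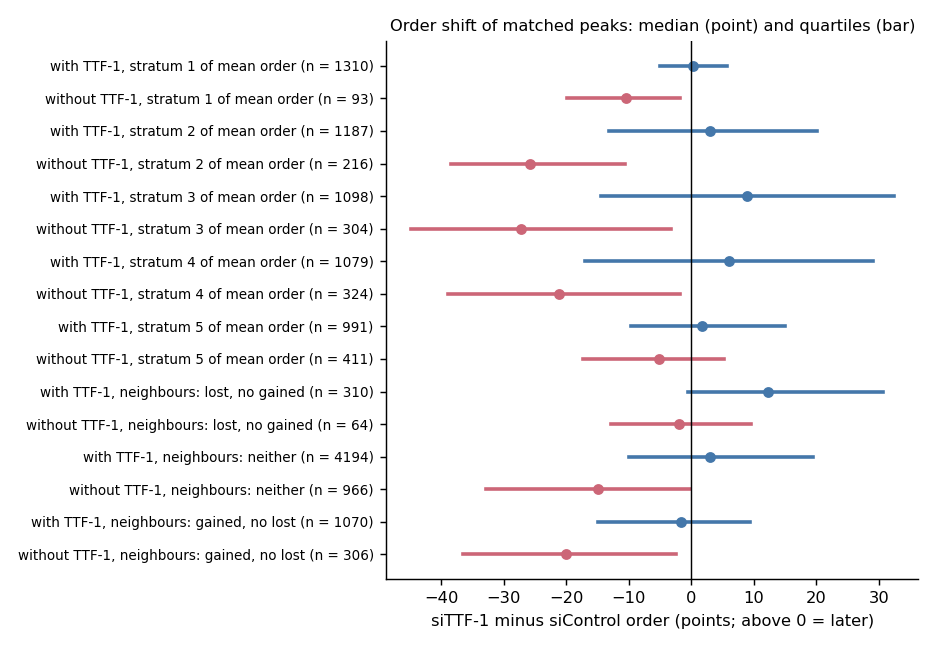
Median order shift (points) and quartiles (bars) of matched Smad3 pairs in percentile points, siTTF-1 minus siControl, by TTF-1 1.5 h presence (blue with, red without) within 5 strata of mean order and by class of the neighbours within 10 kb. The red medians lie to the left of the blue ones in every stratum and every class of neighbours.

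The groups richest in gained sites lay on chromosomes 5, 7 and 11. The one on chromosome 5 (135357001 to 135428599, 71599 bp) held 8 siControl and 16 siTTF-1 peaks, of which 9 were gained and none of the siControl peaks was lost. It contains the first peak of both lists and also 7 Smad4, 7 A549 and 10 TTF-1 1.5 h peaks. On chromosome 7 (100524801 to 100569449, 44649 bp) 1 siControl peak faced 8 siTTF-1 peaks. The single kept site was number 3211 in siControl and number 2350 in siTTF-1 cells, with widths of 799 bp and 1199 bp, and the gained peaks included number 251 (1049 bp) and number 404 (1349 bp), close to the head of the siTTF-1 list. Only 1 TTF-1 peak at each time lay in that group, beside 3 Smad4 and 5 A549 peaks. The group on chromosome 11 (121538101 to 121573999) held 7 siControl and 12 siTTF-1 peaks, 6 of them gained.

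Counted by kept siTTF-1 peaks, the groups with the most kept sites lay on chromosome 14 (36041501 to 36063199, 21699 bp), chromosome 15 (38124751 to 38183649) and chromosome 17 (55261301 to 55279249). The group on chromosome 14 had 9 kept siTTF-1 but only 5 kept siControl peaks, fewer than the 8 in the group on chromosome 5 described above. Its 6 siControl peaks, with widths of up to 6699 bp and lying almost end to end, faced the 9 siTTF-1 peaks. There a siControl peak of 5499 bp (number 1936) faced 3 siTTF-1 peaks of 1299, 749 and 2999 bp at numbers 12983, 6520 and 9375. A siControl peak of 6699 bp (number 2073) met siTTF-1 peaks of 3749, 749 and 2249 bp at numbers 2744, 7519 and 12625. The group had 8 TTF-1 0 h peaks and 5 at 1.5 h, no Smad4 or A549 peak, and 1 lost peak at its end (36062301 to 36063199, 899 bp, number 7710). The group on chromosome 15 had 10 peaks in each list, with 1 lost and 1 gained, and that on chromosome 17 had 8 in each list, all kept.

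The groups with the most lost sites were smaller. On chromosome 5 (43073251 to 43078099), 4 siControl peaks of 1299, 849, 449 and 1799 bp lay within 4849 bp with no siTTF-1 peak and no peak of any reference list. On chromosome 1, 3 lost peaks of 249, 699 and 449 bp at numbers 8866, 6221 and 7607 (31055101 to 31069849) lay among 5 TTF-1 peaks at each time. In a further group on chromosome 1 (43170151 to 43205999), 3 lost, 4 kept and 2 gained sites lay together. In all, 6 groups had 3 lost sites, and these 2 are the first in chromosome order.

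**Figure D5:**
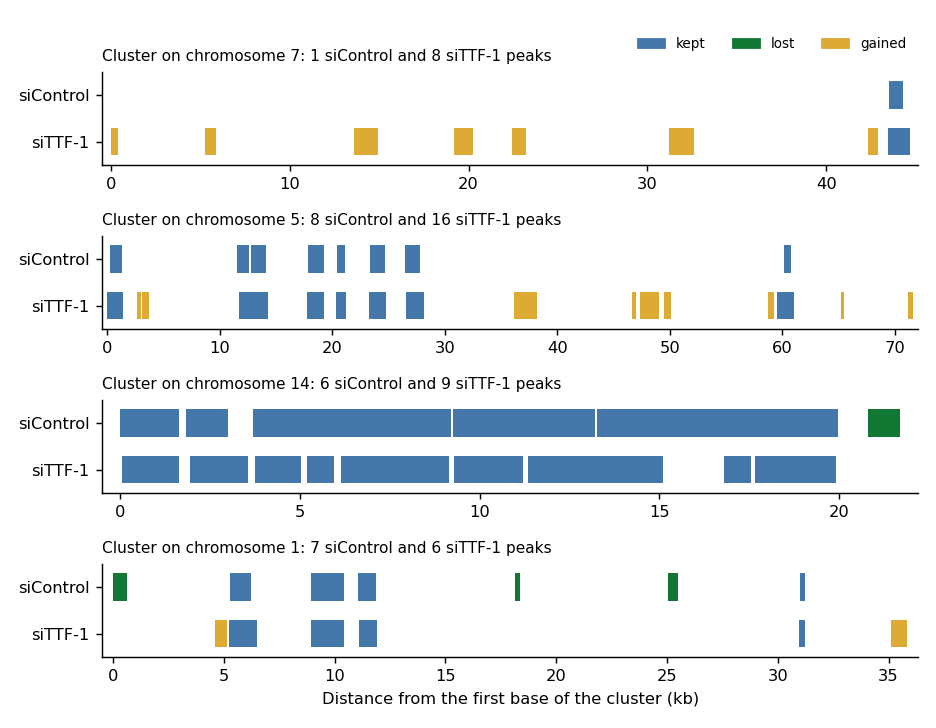
Smad3 peaks of both conditions drawn to scale in 4 groups (horizontal axis, distance in kb from the first base of the group), coloured as kept, lost or gained. The group on chromosome 7 has 1 siControl and 8 siTTF-1 peaks, and on chromosome 14 the broad siControl peaks face several narrower siTTF-1 peaks.

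By 1 Mb window, the largest differences lay on chromosome 4 (169000001 to 170000000), with 17 siControl and 35 siTTF-1 peaks, chromosome 8 (29000001 to 30000000), with 10 and 27, and chromosome 1 (115000001 to 116000000), with 12 and 28. Each also held 18 to 22 TTF-1 peaks at 1.5 h. The first and the last of these windows had no lost peak and the second had 1. Differences in the other direction were small. The largest was on chromosome 6 (27000001 to 28000000), with 13 siControl and 9 siTTF-1 peaks, of which 5 were lost and 1 was gained, and 14 windows had 3 peaks fewer in siTTF-1 cells. The window on chromosome 6 held 15 TTF-1 peaks at 1.5 h. Windows with 3 peaks fewer on chromosome 1, from 175000001 and from 179000001, held 6 and 15. TTF-1 counts were not compared over all windows.

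At the head of the list of siTTF-1 peaks, the first 3 kept sites lay on chromosome 5 (135383501 to 135385099, 1599 bp), chromosome 3 (5032751 to 5034249, 1499 bp) and chromosome 19 (12754601 to 12757449, 2849 bp). Each of them met TTF-1 at 0 h and 1.5 h, Smad4 and A549 Smad3. At the head of the siControl list, the site on chromosome 5 was followed by sites on chromosome 1 (184423301 to 184424949, 1649 bp) and chromosome 12 (45774701 to 45776549, 1849 bp). The earliest lost peak was number 37 of its list and the earliest gained peak number 68.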

How the data were processed

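Peak lists of the 2 Smad3 libraries of H441 cells were compared, with the TTF-1, Smad4 siTTF-1 and A549 Smad3 lists as references. Each list belongs to 1 library, and the authors called its peaks at the false discovery rate limit in the labels. The build is hg18, per the submitters' processing notes. The sources used here name no aligner and no peak caller. The deposited score was 1000 for every peak and was not used. The other deposited value is a peak number, used as an order. Borders lie on a grid of 50 bp, and 1 was added to each deposited start. Overlap, gaps, matched pairs and groups were computed with Python 3.11.15, NumPy 2.4.6 and SciPy 1.17.1, and figures with matplotlib 3.10.9. Shares have exact Clopper-Pearson intervals and medians have order-statistic intervals, both of 95%. The interval of the difference of 2 medians combines their interval widths as a root sum of squares. The code was tested on simulated data and against bedtools 2.31.1.

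The lists compared, the alternatives and the rule for named sites were chosen with earlier results of these data known. The rule named per class the 3 peaks with the lowest number and the 3 widest, the 3 extreme matched pairs by width ratio and by order shift in each direction, the 3 groups with the most sites of each class and the 3 windows with the largest differences. The widest single peaks and the first lost and gained peaks are given in part only. The split of matched pairs by TTF-1, Smad4, A549 and neighbours was chosen after seeing the data. Planned counts of gene lists, distances to transcription starts and motifs were not run, because the reference used here is of another build.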

Additional observations from a re-analysis of the deposited data

How the results depend on the processing

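With 1 library per condition and no read counts, depth sets an unknown limit on every list. No paired analysis was possible because each condition had 1 library. Of 139 values under alternatives over 20 results, 71 stayed within the interval of the value reported (or within 1.5 times a count) and 68 did not, and the order shift difference did not turn; the cause of the moves was not tested. The kept share of siControl peaks (80.8%) was 78.8% when a peak had to be covered by at least 50%, 74.7% with centres within 200 bp, 81.8% with edges within 500 bp, 64.9% with the first 5000 peaks of each list, 67.1% with an equally long siTTF-1 list and 77.4% in the wider 50% of each list. In the same sequence the gained share (49.1%) was 51.3%, 52.8%, 47.5%, 35.5%, 33.5% and 51.3%. The median width of lost peaks was 0.549 kb with centres within 200 bp, 0.599 kb in the first 5000 peaks and 0.749 kb in the wider 50%. That of gained peaks was 0.649 kb in the first 5000, 0.549 kb at equal length and 0.699 kb in the wider 50%. Kept peaks had 0.749 kb (siControl) and 0.799 kb (siTTF-1) in the first 5000 and 0.849 kb and 0.899 kb in the wider 50%. The median width ratio of pairs was 1.07 in the first 5000, 1.08 at equal length and 1 in the wider 50%. For pairs with TTF-1 it was 1.06, 1.06 and 1 in the same sequence, and for pairs without TTF-1 1.25, 1.22 and 1.08. Pairs without TTF-1 had a ratio of 1.13 when TTF-1 presence required centres within 200 bp. The difference in order shift (18.1 points), whose 13 alternatives were chosen after seeing the data, was 24.1 points in the first 5000, 9.88 points with TTF-1 centres within 200 bp and 21.9 points as a mean over 5 strata of mean order.

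The share of siControl and siTTF-1 peaks with a neighbour was 28.3% and 25.9% in the first 5000, 28.5% and 31.7% in the wider 50%, and 31.7% and 37.1% with peaks within 500 bp merged. With a distance of 5 kb it was 27.3% and 31.0%, with 25 kb 51.2% and 58.3%, and at equal length the siTTF-1 share was 34.1%. A kept peak lay within 10 kb of 18.4% of gained and 21.0% of lost peaks with edges within 500 bp, 13.4% and 16.9% in the first 5000, 19.5% and 21.95% at equal length, 13.5% and 17.2% in the wider 50% and 18.0% and 20.7% with merged peaks. With a distance of 5 kb these shares were 13.8% and 16.2%, and with 25 kb 33.0% and 38.8%. The TTF-1 1.5 h share of lost, kept siControl and gained peaks (88.5%, 80.7% and 26.4%) was 76.6%, 71.9% and 23.9% with centres within 200 bp, and 92.4%, 86.6% and 37.5% with the 0 h list. Distances to transcription starts, gene lists and motifs, and other settings for them, were not run.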
